A study of Drosophila melanogaster with 2 samples.

Results

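The transfer RNA (tRNA) genes of Drosophila melanogaster were examined for binding of BuGZ, a zinc finger protein known in human cells from the kinetochore and the mitotic spindle. They were taken as every gene of biotype tRNA on the main chromosomes of the Ensembl annotation, which gave 290 of 18277 genes; the mitochondrial genome was not analysed here. Chromatin was immunoprecipitated from whole embryos of both sexes, aged 0 to 16 h, of a transgenic line that stably expressed BuGZ (CG17912) fused at its C terminus to green fluorescent protein (GFP). The promoter of the transgene is not stated here. That line gave 1 group of 2 biological replicates and no second condition, so no test between samples could be made. The deposited lists held 30000 candidate regions for each replicate, 30000 for the replicates pooled and 2413 reproducible peaks. Each sample's description spoke of an input control, while its antibody label named the tagged protein and its region list was made against a separate control alignment. The libraries were read as immunoprecipitates, and this conflict was not settled. Read depth was unknown, so intervals cover counting error over genes only.

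Transfer RNAs carry amino acids to the ribosome and are named by that amino acid, the isotype, and by the anticodon that reads the codon. Their genes are transcribed by RNA polymerase III from promoter elements inside the gene, the A box and the B box: the factor TFIIIC binds these boxes and places TFIIIB just upstream of the gene, where the polymerase is recruited. Most tRNAs are encoded by several near-identical copies, which in the fly often lie in clusters. Here the 290 genes had a median length of 73 bp (range 71 to 186) and 95 distinct sequences, and 238 of them had at least 1 identical copy elsewhere. Genes whose 5′ ends lay at most 5 kb apart were joined, which gave 68 clusters with 214 genes and 76 single genes.

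The sequences at the 3 tRNA peaks of highest signal value, which lie on 3R and 2L, show how a summit sat beside its gene. Each runs 5′ to 3′ on the strand of the tRNA gene, from 15 bases before the summit, which is base 16. Capitals mark the tRNA gene, read from the RefSeq genome of the same Release 6 assembly as dm6. The tRNA:Tyr-GTA-1-8 window covers chr3R:8669081-8669375 on the minus strand, with the whole gene of 94 bases. The tRNA:Thr-AGT-1-4 window covers chr3R:16431826-16431951 on the plus strand, with the first 12 of 74 gene bases. The tRNA:Pro-AGG-1-1 window covers chr2L:14495624-14495923 on the plus strand, with the first 46 of 72 gene bases.
tRNA:Tyr-GTA-1-8: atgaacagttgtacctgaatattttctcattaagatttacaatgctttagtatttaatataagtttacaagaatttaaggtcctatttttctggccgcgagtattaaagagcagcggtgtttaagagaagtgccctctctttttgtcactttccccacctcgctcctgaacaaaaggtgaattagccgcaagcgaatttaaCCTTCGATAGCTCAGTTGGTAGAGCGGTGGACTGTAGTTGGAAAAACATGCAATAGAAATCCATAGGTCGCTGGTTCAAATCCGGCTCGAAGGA
tRNA:Thr-AGT-1-4: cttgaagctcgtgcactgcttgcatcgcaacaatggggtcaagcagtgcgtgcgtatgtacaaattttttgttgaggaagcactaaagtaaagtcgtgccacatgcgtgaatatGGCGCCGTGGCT
tRNA:Pro-AGG-1-1: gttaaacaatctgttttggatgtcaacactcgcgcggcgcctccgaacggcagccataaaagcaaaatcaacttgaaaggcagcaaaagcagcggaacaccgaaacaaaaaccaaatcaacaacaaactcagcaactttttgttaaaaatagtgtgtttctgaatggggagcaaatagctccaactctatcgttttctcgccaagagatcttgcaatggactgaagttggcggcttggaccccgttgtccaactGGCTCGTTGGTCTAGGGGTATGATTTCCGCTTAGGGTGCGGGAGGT

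In all 3 windows the summit lay in the flank upstream of the gene, not in the gene itself. The tRNA:Tyr-GTA-1-8 gene holds GGTTCAA, a common form of the B box core, in its 3′ part.

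Reproducible peaks were rare at tRNA genes. A summit lay within 250 bp of the annotated 5′ end at 9 of 290 genes (3.10%, 95% Wilson interval 1.64 to 5.79), and these 9 genes shared 8 peaks. Over all 18277 genes, 9.43% had a reproducible summit within 250 bp of any annotated transcription start site (TSS). A gene with several TSS thus had more windows than a tRNA gene, which can raise the shares of the other classes. The share was 11.6% of 13968 protein-coding genes (interval 11.1 to 12.1) and 4.09% of 269 genes for small nucleolar RNAs (interval 2.30 to 7.17). Genes of biotype ncRNA had a share of 2.31% of 3289 (interval 1.85 to 2.88). The interval of the tRNA genes lay below that of the protein-coding genes and overlapped those of the snoRNA and ncRNA genes. These intervals take genes as independent, although neighbouring genes can share a summit, so they may be too narrow. Among the candidates pooled from both replicates, 79 tRNA genes had a summit in the window (27.2%, interval 22.4 to 32.6), against 40.7% of all genes. The pooled share was 40.5% for snoRNA genes and 19.6% for ncRNA genes.

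**Figure D1:**
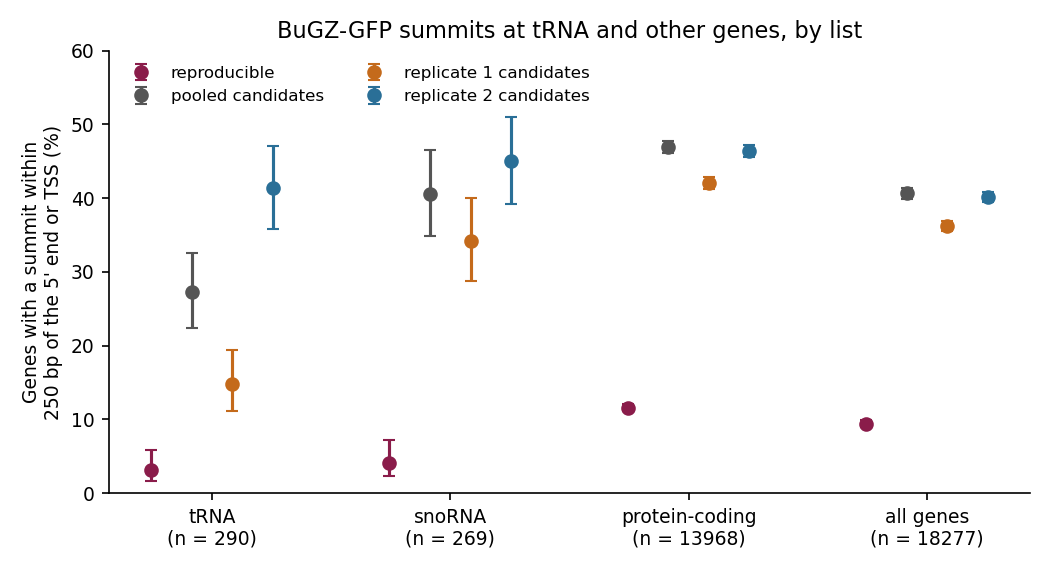
Share of genes with a summit within 250 bp of the annotated 5′ end (tRNA genes) or of any TSS, in percent, for each list and gene class; points are shares over genes and bars are 95% Wilson intervals. At tRNA genes the replicates stood at 14.8% and 41.4%, while at protein-coding genes they stood at 42.1% and 46.4%.

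The highest of the 8 peaks lay at tRNA:Tyr-GTA-1-8 (3R, 8669081 to 8669174, minus strand), a gene for a tyrosine tRNA in an intron of CG8036 and p. The peak (8669324 to 8669467) had a signal value of 223, on the authors' own scale, and ranked 375 of the 2413 reproducible peaks. Its matching region ranked 286 in replicate 1 and 640 in replicate 2, so both replicates placed it near the top of 30000 regions. Second was tRNA:Thr-AGT-1-4, for a threonine tRNA, in an intron of CG31279, with a signal value of 192 and rank 510. It ranked 625 in replicate 1 and 383 in replicate 2. These were the only peaks at tRNA genes above the median signal value of all reproducible peaks, which was 134.

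The remaining 6 peaks had signal values of 111 to 130, between the lowest value of the list, 101, and its median, 134. The peak at tRNA:Pro-AGG-1-1, for a proline tRNA between protein-coding genes on 2L, ranked 1319, with matching regions at ranks 2051 and 2469 in replicates 1 and 2. In both replicates the summit lay just outside the window, at 251 and 255 bp from the 5′ end, so the gene counted in the pooled list but in neither replicate list. The peak at tRNA:His-GTG-1-3, in a cluster of 4 histidine genes on 2R, ranked 1482, and 3081 and 1684 in the replicates. The peak at tRNA:Arg-CCT-1-2, for an arginine tRNA, ranked 1536, and 2283 and 1443 in the replicates. The peak at tRNA:Glu-TTC-1-5, in a cluster of 7 glutamate and initiator methionine genes, ranked 1712, and 1541 and 933 in the replicates; its replicate 2 summit lay 253 bp from the 5′ end, outside the window. The peak at tRNA:Ser-TGA-2-1, for a serine tRNA, ranked 1724, and 2948 and 1124 in the replicates. All of these last 4 peaks lay between protein-coding genes and ranked higher in replicate 2 than in replicate 1.

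The weakest peak was shared by tRNA:Ser-CGA-1-4 and tRNA:Val-AAC-2-1, neighbours in an intron of hts on 2R (19414598 to 19414679 and 19414845 to 19414917, both on the plus strand). It had a signal value of 111 and rank 1904. Replicate 2 held a matching region at rank 634, and replicate 1 held none within 200 bp. These 2 of the 9 genes therefore rested on replicate 2. Of the 9 genes, 6 lay on 2R, which holds 98 of the 290 tRNA genes, 2 on 3R and 1 on 2L; the 48 genes on 3L and the 24 on X had none.

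For 7 of the 9 genes the reproducible summit was on the upstream side of the 5′ end, and the median position was -180 bp. Among candidates the sides were more even: the best-ranked summit was upstream at 44 of the 79 genes in the pooled list (median -27 bp), 25 of 43 in replicate 1 (median -37 bp) and 74 of 120 in replicate 2 (median -52.5 bp). Only the summit at tRNA:Ser-CGA-1-4, 67 bp downstream of the 5′ end, fell inside a tRNA gene, and the intervals of the reproducible list overlapped 2 tRNA genes in all. At tRNA:Ser-TGA-2-1 the summit was 89 bp upstream and at tRNA:Thr-AGT-1-4 it was 99 bp upstream. The summits at tRNA:Val-AAC-2-1, tRNA:Tyr-GTA-1-8, tRNA:Arg-CCT-1-2 and tRNA:His-GTG-1-3 were 180, 186, 192 and 219 bp upstream. The summits nearest the window's edge on the inside were those at tRNA:Pro-AGG-1-1, 239 bp upstream, and tRNA:Glu-TTC-1-5, 247 bp downstream. The first outside it were at tRNA:Arg-CCT-1-3, the partner of tRNA:Arg-CCT-1-2 on the far side of the same peak, at 259 bp, and tRNA:Trp-CCA-2-2 at 286 bp. Up to 500 bp, 5 more genes followed: tRNA:Phe-GAA-1-2 (313 bp), tRNA:Val-CAC-1-1 (383 bp), tRNA:Ala-TGC-2-1 (384 bp), tRNA:Ser-TGA-1-1 (392 bp) and tRNA:Ile-AAT-1-9 (490 bp).

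A protein-coding TSS was seldom nearer to the summit than the tRNA gene. This was so for 1 of the 9 genes, tRNA:His-GTG-1-3, whose summit lay 31 bp from the TSS of CG8490 and 219 bp from the tRNA 5′ end. The nearest protein-coding TSS was CG8036 for the tRNA:Tyr-GTA-1-8 peak, at 258 bp, and CG31279 for the tRNA:Thr-AGT-1-4 peak, at 356 bp. For the other 5 peaks it lay 2107 to 13208 bp away. With genes of every class but tRNA taken as neighbours, the tRNA gene was not the nearest in 2 further cases: a snoRNA gene lay 132 bp from the tRNA:Glu-TTC-1-5 summit, and snoRNA:hts-a lay 175 bp from the summit shared by tRNA:Val-AAC-2-1 and tRNA:Ser-CGA-1-4, of which the serine gene was closer. Across all tRNA genes the median distance to a protein-coding TSS was 2895 bp, and 6 of 290 had one within 250 bp. Summits were chosen within 250 bp of a tRNA 5′ end, so a protein-coding TSS could be nearer only where one lay close to the tRNA gene. Among the 79 genes with a pooled candidate, a protein-coding TSS was nearer for 2.

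Below the reproducible list, candidates at tRNA genes spread over the whole range of ranks. The 79 genes were served by 67 distinct pooled regions with a median rank of 10289 over genes, and 53 genes had one in the upper 15000. After the 9 genes with a peak, tRNA:Gly-TCC-2-2, for a glycine tRNA, came next at pooled rank 2664, just below the reproducible list, with rank 1420 in replicate 1 and 6822 in replicate 2. The glutamine gene tRNA:Gln-CTG-2-3 followed at pooled rank 4143, with ranks of 6147 and 5927. The neighbours tRNA:Gly-GCC-1-12 and tRNA:Trp-CCA-2-4 shared a region at pooled rank 4353 that ranked 2275 in replicate 2 and had no counterpart in replicate 1. All of the next 15 genes by pooled rank had a region in replicate 2, and 10 had one in replicate 1. They ended at tRNA:Phe-GAA-1-3, for a phenylalanine tRNA in an intron of Sema1a, at pooled rank 7434. Others among them were tRNA:Ala-CGC-1-2 (pooled rank 4488), tRNA:Ser-AGA-2-4 (5194), tRNA:Glu-TTC-1-2 (6341), tRNA:Thr-AGT-1-2 (6464), tRNA:Ala-TGC-1-1 (6506), tRNA:Arg-TCG-2-4 (6723), tRNA:Pro-AGG-1-2 (6735) and tRNA:Ile-AAT-1-8 (7329). The neighbours tRNA:Arg-TCG-1-1 and tRNA:Ser-CGA-1-3 shared pooled rank 6930.

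The replicates gave very different pictures of the tRNA genes. Replicate 1 had a candidate summit at 43 of 290 (14.8%, interval 11.2 to 19.4) and replicate 2 at 120 (41.4%, interval 35.9 to 47.1), a ratio of 2.79. Over all genes the shares were 36.3% in replicate 1 and 40.1% in replicate 2, a ratio of 1.11, and for protein-coding genes the ratio was 1.10. The snoRNA genes, also short and often embedded in other genes, had 92 of 269 in replicate 1 and 121 in replicate 2, a ratio of 1.32. Both replicates placed a summit at 28 tRNA genes, replicate 1 alone at 15, replicate 2 alone at 92 and neither at 155. Of the genes of replicate 1, 65.1% were also in replicate 2, but of those of replicate 2 only 23.3% were in replicate 1, where the figures for protein-coding genes were 79.2% and 71.7%. Of the 28 genes in both, 20 ranked higher in replicate 2. In at least 1 of the 3 candidate lists there were 141 tRNA genes, and 24 were in all 3. With 2 replicates no test of this difference between samples could be made.

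**Figure D2:**
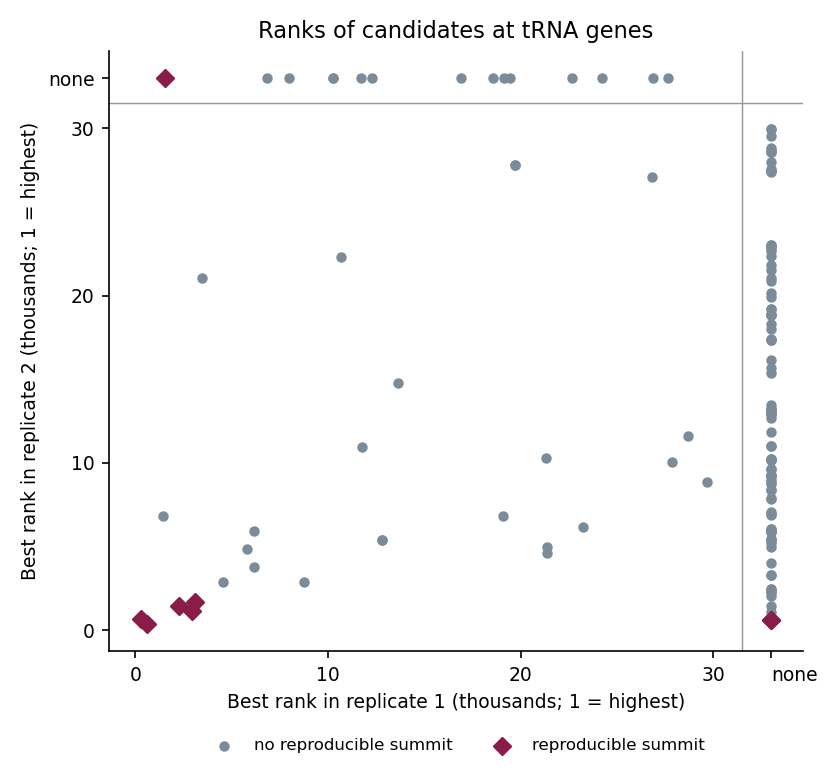
Each point is a tRNA gene with a candidate summit within 250 bp of its 5′ end in replicate 1, replicate 2 or both; axes give the best rank in each list in units of 1000 (low ranks have the highest signal values), and genes absent from a list stand in the strip marked none. The strip without a replicate 1 region holds 92 genes and that without a replicate 2 region 15; diamonds mark 8 of the 9 genes with a reproducible summit, some of which overlap, since tRNA:Pro-AGG-1-1 is in neither list.

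At the top of the lists the counts were small. Their intervals overlapped, but both counts cover the same tRNA genes, so this overlap does not compare the replicates. Among the 2413 highest regions, replicate 1 reached 5 tRNA genes (1.72%, interval 0.739 to 3.97). Replicate 2 reached 12 (4.14%, interval 2.38 to 7.09), against 9.08% and 9.29% of all genes in replicates 1 and 2. These genes were served by 5 distinct regions in replicate 1 and 9 in replicate 2. Among the highest 10000 regions the counts were 15 and 57 tRNA genes. Protein-coding genes differed far less at that point, with 28.7% in replicate 1 and 30.6% in replicate 2. The pooled list lay between the replicates at tRNA genes and at or above both at protein-coding genes.

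**Figure D3:**
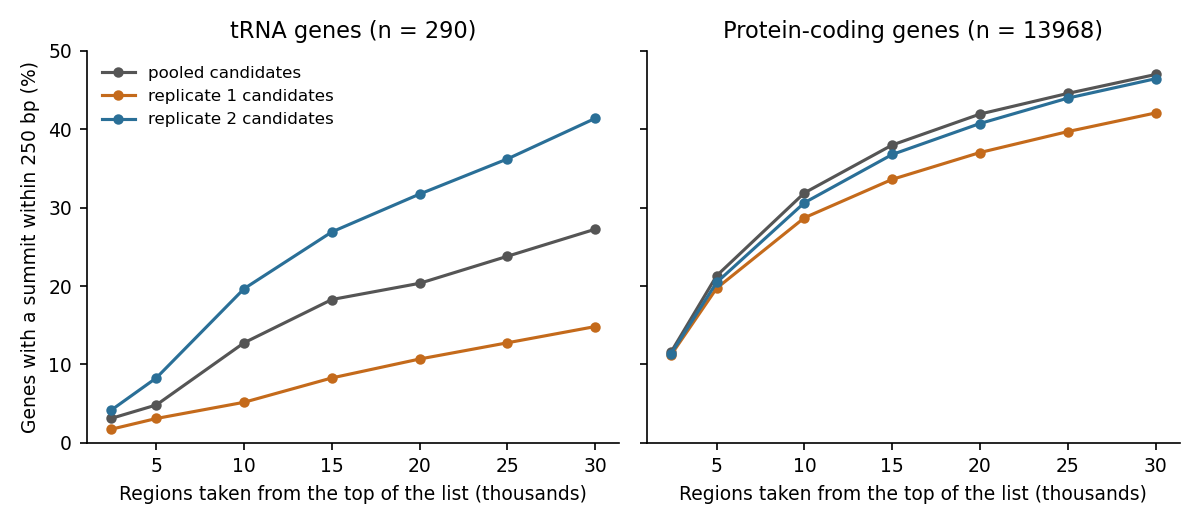
Share of tRNA genes (left) and protein-coding genes (right) with a summit within 250 bp, in percent, against the number of regions taken from the top of each list, in units of 1000. For tRNA genes the curve of replicate 2 runs from 4.14% to 41.4% and that of replicate 1 from 1.72% to 14.8%; the curves for protein-coding genes lie close together.

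The replicates were also compared separately at single and at clustered tRNA genes. Of the 76 single genes, replicate 1 had a candidate at 13 (17.1%) and replicate 2 at 15 (19.7%), and 9 genes were in both. Of the 214 genes in clusters, replicate 1 had 30 (14.0%) and replicate 2 had 105 (49.1%), and 19 were in both. The ratio of replicate 2 to replicate 1 was 1.15 for single genes and 3.5 for clustered genes, and whether these ratios differ was not tested. Neighbours in a cluster can share a region, so loci were also counted: replicate 1 reached 23 of the 68 clusters and replicate 2 reached 47. An 11-gene cluster on 2R, with lysine, arginine, asparagine and isoleucine genes (6161535 to 6171759), had 9 genes with a candidate in replicate 2 and 0 in replicate 1. An 11-gene cluster on 3R, with alanine, proline, threonine and valine genes (17617761 to 17631750), had 7 and 0. Of 6 cysteine and lysine genes on 3L (3095737 to 3097590), 5 had a candidate in replicate 2 and 0 in replicate 1. In the same order, the pooled list had a candidate at 2, 4 and 3 genes of these clusters. Their best replicate 2 ranks were 11034, 10209 and 6896. In the 10 clusters of 5 or more genes together, 33 of 72 genes had a candidate in replicate 2 and 4 in replicate 1.

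**Figure D4:**
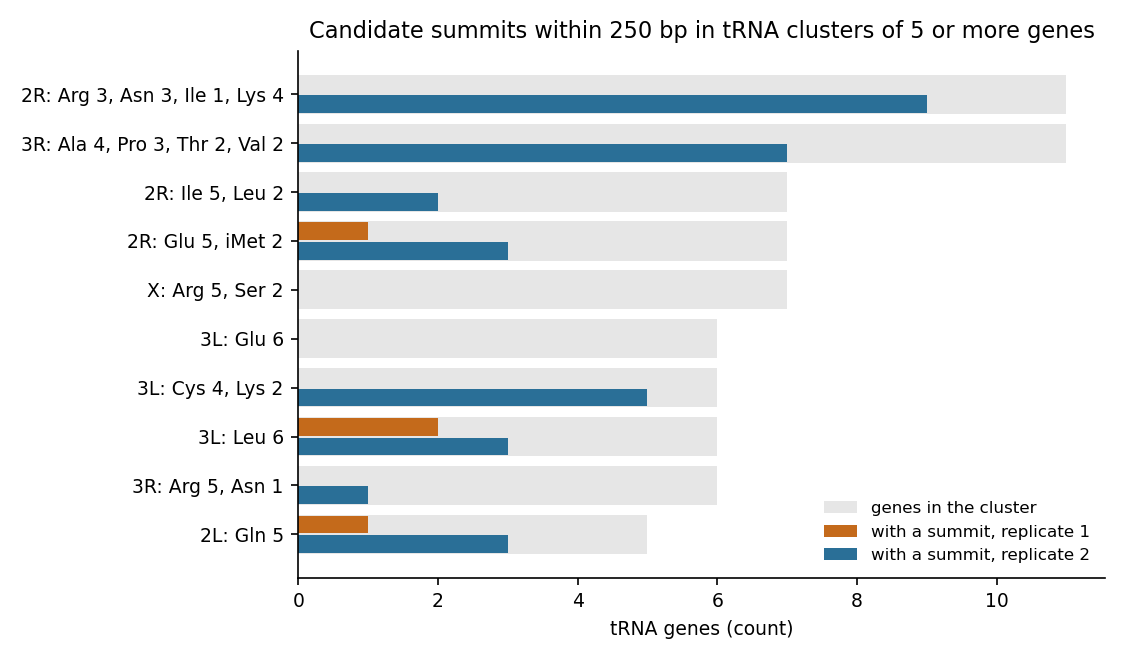
The 10 tRNA clusters of 5 or more genes, named by chromosome arm and by isotype with the number of genes of each; grey bars give the genes in the cluster and coloured bars those with a candidate summit within 250 bp in replicate 1 or replicate 2. Replicate 2 is higher in 8 clusters and equal in 2, where both are at 0.

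The other large clusters had fewer genes with a candidate in replicate 2. The 6 glutamate genes on 3L (1397695 to 1401852) had no candidate in any list. A cluster of 7 arginine and serine genes on X (14014814 to 14017284) had 1 gene with a pooled candidate and none in either replicate. The 6 leucine genes on 3L (8060214 to 8068290) had candidates in both replicates, at 2 and 3 genes, and the 5 glutamine genes on 2L (2009155 to 2013250) at 1 and 3. On 3R, 6 arginine and asparagine genes had 0 and 1, and on 2R 7 isoleucine and leucine genes had 0 and 2. Reproducible peaks were at 6 of the 68 clusters, of which only that of tRNA:Glu-TTC-1-5 had 5 or more genes, and at 2 of the 76 single genes, tRNA:Thr-AGT-1-4 and tRNA:Pro-AGG-1-1. In the cluster of 3 tyrosine genes on 3R that holds tRNA:Tyr-GTA-1-8, all 3 had a pooled candidate.

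By isotype, peaks were scattered. The 9 genes came from 8 of the 22 isotypes: serine had 2, and arginine, glutamate, histidine, proline, threonine, tyrosine and valine had 1 each. Leucine (22 genes), glycine (20), lysine (19), alanine (17), aspartate (14), glutamine (12), isoleucine (11), asparagine (10), phenylalanine (8), tryptophan (8), cysteine (7), methionine (6), initiator methionine (6) and the 1 selenocysteine gene had none. Among the 15 isotypes of 10 or more genes, the share with a pooled candidate ran from 1 of 10 genes for asparagine to 5 of 10 for tyrosine, with alanine at 8 of 17 and proline at 7 of 17. Replicate 2 had more genes with a candidate than replicate 1 in 19 of the 22 isotypes, the same number in 3 (threonine, tyrosine and selenocysteine) and fewer in none. Asparagine was the most uneven, with 7 of 10 genes in replicate 2 and 0 in replicate 1. Genes of an isotype often lie in the same clusters, so isotypes were not independent of the cluster pattern.

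Genes with and without an identical copy had similar shares of candidates. Of the 52 genes with a sequence of their own, 15 had a pooled candidate (28.8%), against 64 of 238 genes with an identical copy (26.9%). In replicate 1 the shares were 15.4% and 14.7%, and in replicate 2 they were 38.5% and 42.0%. The excess of replicate 2 was thus present in both kinds. How reads from identical copies were placed is not given in the sources used here, and its part in the counts was not tested. Genes in introns of protein-coding genes and genes between them also had similar shares of pooled candidates, 33 of 127 and 42 of 156, while 4 of the 7 that overlap an exon had one.

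Per length of sequence, candidate summits were denser inside tRNA genes and in the 250 bp upstream than in the rest of the main chromosomes in each candidate list. The density at the starts of other genes is not given here. By share of genes with a pooled candidate, tRNA genes were below all genes (27.2% against 40.7%). In the pooled list there were 0.726 summits per kb inside tRNA genes, 0.600 in the 250 bp upstream and 0.348 in the 250 bp downstream. In the rest of the main chromosomes there were 0.218 per kb, and in the flanks beyond 250 and up to 1000 bp from the genes 0.294. Replicate 2 had 1.09 per kb inside the genes and 0.917 upstream, and replicate 1 had 0.409 and 0.384. In the 250 bp downstream, replicate 2 had 0.612 per kb, while replicate 1 had 0.199, below its value in the rest of the chromosomes. Away from tRNA genes the replicates had nearly the same density, at 0.217 in replicate 2 and 0.218 per kb in replicate 1. The reproducible list had 0.100 summits per kb upstream (6 summits) and 0.0454 inside the genes (1 summit), against 0.0175 in the rest of the chromosomes. The upstream zone held more summits per kb than the downstream zone in all 4 lists. The numbers inside genes were small, at 16 in the pooled list, 9 in replicate 1 and 24 in replicate 2.

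**Figure D5:**
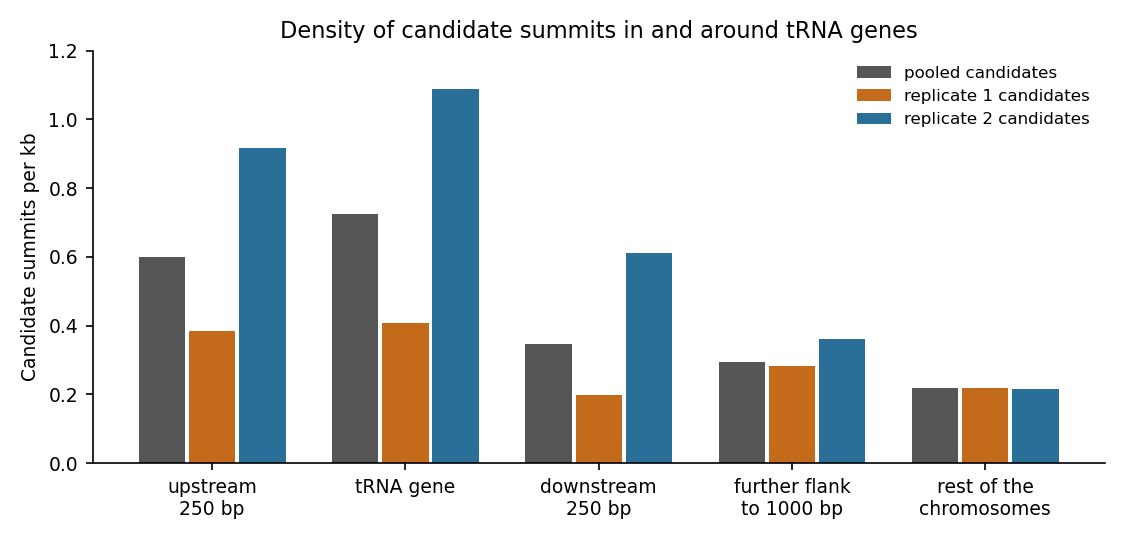
Candidate summits per kb in the tRNA genes, in the 250 bp on either side, in the further flank to 1000 bp and in the rest of the main chromosomes, for the pooled list and each replicate; overlapping zones were counted once. Replicate 2 reaches 1.09 per kb in the genes and replicate 1 0.409. Both are near 0.22 in the rest of the chromosomes, which the equal length of the lists sets in advance.

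The B box core was present in most tRNA genes, whether or not they had a candidate. The letters GGTTCGA were in 145 genes and GGTTCAA in 81, and 64 had neither. A pooled candidate lay at 38 of the 145 (26.2%), 21 of the 81 (25.9%) and 20 of the 64 (31.3%). Within 100 bp of the summit, searched on both strands, GGTTCGA was in 1 of the 8 tRNA peaks, the one at tRNA:Ser-CGA-1-4, and in 1.62% of all reproducible peaks. It was in 14 of the 67 pooled regions at tRNA genes, against 1.47% of all pooled candidates and 1.83% of windows of the same length at protein-coding TSS. The 8 peaks and 67 regions were chosen for lying near tRNA genes, so their windows can include the B box of the gene itself. These comparisons therefore cannot show a preference of the summits for the motif.

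Motifs known from protein-coding promoters were searched in the same windows. TATCGATA, the DNA replication-related element, was in 1 of 8, the peak at tRNA:His-GTG-1-3 that lies nearer to CG8490, against 5.68% of all reproducible peaks and 6.44% of protein-coding TSS windows. CGATA, a core bound by BEAF-32, which TATCGATA contains, was in that same peak alone, against 34.7% of all reproducible peaks and 37.1% of protein-coding TSS windows. GAGAG, bound by GAGA factor, was in 0 of 8 (28.8% of all reproducible peaks and 25.0% of TSS windows). GGTCACAC, the core of the M1BP motif, was in 0 of 8 (5.01% and 5.68%). In the 67 pooled regions at tRNA genes, TATCGATA was in 2 (2.99%, against 2.12% of all pooled candidates), CGATA in 10 (14.9% against 26.3%), GAGAG in 15 (22.4% against 26.4%) and GGTCACAC in 1 (1.49% against 2.17%). These counts are a description of the windows only.

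A fixed list of other genes taken as RNA polymerase III transcripts held 110, of which 100 have a 5S ribosomal RNA symbol, pseudogenes included. Which polymerase transcribes each member was not analysed here, and RNaseP:RNA in particular may not belong in the list. Among the other 10, 2 had a reproducible summit within 250 bp and 4 a pooled candidate, where 9.43% and 40.7% of all genes had one. The 2 were snRNA:7SKa, whose RNA holds back the elongation factor P-TEFb, with a signal value of 459 (rank 53) and a summit 228 bp downstream of its 5′ end, and snRNA:U6:96Ac, a spliceosomal RNA gene, with a signal value of 130 (rank 1316) and a summit 109 bp upstream. The 7SKa peak ranked 42 in replicate 1 and had no candidate in the window in replicate 2, and the U6 peak ranked 1408 and 683. The nearest protein-coding TSS lay 987 and 8089 bp from these summits. RNaseMRP:RNA and RNaseP:RNA, the RNA parts of the enzymes that process ribosomal and transfer RNA precursors, had pooled candidates at ranks 2847 and 3832. The 100 genes with a 5S symbol had no candidate in any list, and neither did the 7SL, snRNA:7SKb, snRNA:U6:96Aa, snRNA:U6:96Ab and snRNA:U6atac genes. The 5S genes are near-identical repeats, and whether reads could be placed there was not analysed here.

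Of 19 protein-coding genes for RNA polymerase III and its factors, 3 had a reproducible summit within 250 bp of a TSS and 15 a pooled candidate, where 11.6% and 47.0% of all protein-coding genes had one. The 3 were Polr3E, a subunit of the polymerase (signal value 233, rank 338), Brf (187, rank 540) and Bdp1 (142, rank 1027), both subunits of TFIIIB. At Brf the summit was at -222 bp from its TSS and 35 bp from that of sds22. Among the 11 tRNA modification genes, 2 had a reproducible summit, and the higher was at Tcs5, known from the complex that makes the threonylcarbamoyl adenosine of tRNA (signal value 658, rank 20). The Tcs5 summit lay 111 bp from its TSS and 113 bp from that of CHMP2B. Pooled candidates were at 10 of the 11.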

How the data were processed

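Chromatin immunoprecipitation with sequencing was done on 2 replicates of 1 group, with chromatin sonicated to 200 to 800 bp per the labels. The read-me files deposited by the authors list 1 dm6 alignment and a control alignment as the parents of each replicate's candidates, and both replicates as those of the pooled ones. The reproducible peaks passed an irreproducible discovery rate threshold of unstated value. The 2413 highest pooled candidates gave the same counts as the reproducible list, 9 tRNA genes and 1621 protein-coding genes. A peak of that list need not have a matching region in both replicates, as in the intron of hts. Aligner and peak caller: not given in the sources used here. The deposited signal value of each region has no stated scale and was used to order the regions of each list. The deposited summit offset, whose unit is bp, was added to the interval start. Coordinates are dm6, 1-based, and all intervals lay within the Release 6 chromosomes of the RefSeq genome.

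Genes came from Ensembl release 115 on 7 main chromosomes, without transposable elements. A gene was counted where a summit lay within 250 bp of its annotated 5′ end (tRNA) or of any TSS, and a shared summit counted for each gene. A tRNA gene's annotated 5′ end is that of the RNA, not a mapped start of transcription. The 5 tRNA pseudogenes were left out of the 290. Regions were matched between lists within 200 bp. Counts have 95% Wilson intervals, and no test was run. Named were all tRNA genes with a reproducible summit, those up to 500 bp away, the next 15 by pooled rank, all isotypes, clusters of 5 or more genes and list members with a peak, of which 1 is not reported here. The members, lists and rules were chosen with earlier results of these data known. Alternatives were other windows, interval overlap, other cluster gaps, the stronger part of the lists and each replicate alone. The count was tested on simulated data. Python 3.11.15, pandas 2.3.3, scipy 1.17.1 and matplotlib 3.10.9 were used; of older symbols, 4 were matched through the RefSeq gene table.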

Additional observations from a re-analysis of the deposited data

How the results depend on the processing

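The main count was 9 tRNA genes with a reproducible summit. A window of 100 bp left 3, 500 bp gave 16 and 1000 bp gave 26; overlap of the interval with the gene gave 2, the stronger part of the list 2, and peaks in the top regions of both replicates 4. Each replicate alone was counted by its 2413 highest candidates in place of the reproducible list. This gave 5 genes in replicate 1 and 12 in replicate 2. The count with a protein-coding TSS nearer was 1, and it was 0 at 100 bp, 3 at 500 bp, 7 at 1000 bp and 3 with the TSS of any other gene. Pooled candidates, at 79 genes, went to 34, 120 and 165 with windows of 100, 500 and 1000 bp. The full candidate lists of replicates 1 and 2 in place of the pooled list gave 43 and 120. Clusters with a reproducible summit, 6 in number, went to 2 at 100 bp and 10 at 1000 bp. The 2413 highest candidates of replicates 1 and 2 gave 3 and 7 clusters. The ratio of replicate 2 to replicate 1, whose alternatives were chosen after seeing the data, was 2.79 and fell to 1.49 at 1000 bp, 1.72 when clusters and single genes counted once each and 1.15 for single genes. Under the 6 other alternatives it ran from 2.23 (clusters of 5 or more genes left out) to 3.5 (interval overlap). The cause of these changes was not tested, but a wider window takes in more summits by construction. No paired analysis was possible because there was only 1 group. Read depth was unknown, and a gene missing from a list may only have ranked below its 30000 regions.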

Other observations

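Among the 5 tRNA pseudogenes on the main chromosomes, none had a reproducible summit within 250 bp of the 5′ end. tRNA:His-GTG-2-1Psi, beside the histidine cluster on 2R, had a pooled candidate at rank 21031 and a replicate 2 candidate at rank 17383, both shared with its neighbour tRNA:His-GTG-1-4. tRNA:Glu-CTC-5-1Psi, beside the cluster of tRNA:Glu-TTC-1-5, had a replicate 2 candidate at rank 16523. Neither had a candidate in replicate 1, and the other 3 had none in any list.

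By distance to a protein-coding TSS, the share of tRNA genes with a candidate in replicate 1 was 8 of 26 at over 250 and up to 500 bp, 8 of 47 at over 500 and up to 1000 bp and 13 of 110 beyond 5000 bp. In replicate 2 the counts were 15, 26 and 38 (57.7%, 55.3% and 34.5%). Replicate 2 was thus higher in each of these distance classes. On the X chromosome, 3 of 24 tRNA genes had a candidate in replicate 2 (12.5%) and 2 in replicate 1, while the arms 2L, 2R, 3L and 3R had 37.5% to 48.8% in replicate 2. The X genes lay at 14 loci, and a cluster of 7 had no candidate in either replicate. Shares of all genes by chromosome are not given here, so whether the X value is particular to tRNA genes was not tested.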
